A study of Homo sapiens with 24 samples.

Results

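The genes described here are HMGCS1, MVD, IDI1, FDFT1, SQLE and DHCR7, which encode enzymes of cholesterol synthesis, and SREBF2 and INSIG1, which encode regulators of that pathway. These 8 genes were named by symbol and each symbol was matched to one of the 60236 Ensembl gene IDs in the deposited table, so all 8 were found. They were chosen with earlier results of these data known. Their counts beside the share of all genes are therefore descriptions. All 8 passed the filter on low counts in every comparison. The genes were named as sterol synthesis and uptake genes, but none of the 8 encodes an uptake receptor.

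RNA was sequenced from HEK293T, a line of embryonic kidney origin, and A549, a line of lung adenocarcinoma origin, both human, 48 h after each was transfected by lipofection with one of 4 plasmids. The snaR-A plasmid expresses snaR-A, a small noncoding RNA, from a U6 promoter, and the scramble plasmid expresses a scrambled version of the same RNA in the same way. The other plasmids encode SF3B2, a protein of the U2 snRNP of the spliceosome, or eGFP, a green fluorescent protein, each with a FLAG (DYK) tag. With 3 biological replicates of each plasmid in each line there were 8 groups and 24 libraries, every one of them transfected. HEK293T cells grew in DMEM and A549 cells in F-12K, both with fetal bovine serum, so line and medium cannot be told apart. Scramble is the control for snaR-A and eGFP the control for SF3B2, while eGFP and scramble are different kinds of plasmid, so their difference holds promoter, insert and tag together. The share of cells that took up a plasmid was not given in the sources used here, and in such bulk RNA fewer cells with a transcript and less of it per cell cannot be told apart.

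Total counts per library lay between 195186194 and 260878268, at which 3 counts correspond to 0.0115 to 0.0154 CPM (counts scaled to a fixed library total), far under every value of the 8 genes. The SF3B2 mRNA stood at 24022 to 48705 CPM in the libraries labelled SF3B2 and at 294 to 371 CPM elsewhere, except in A549 scramble replicate 3, where it was 8743 CPM. HEK293T eGFP replicate 3 held 666 CPM of 8 A549 marker genes, against 3.92 to 20.8 CPM in the other HEK293T libraries and 17908 to 19900 CPM in A549. Labels of A549 snaR-A replicate 3 disagreed on the cell line, and by its expression profile over 12629 genes it correlated with the other A549 libraries at a Spearman rho of at least 0.994 and with HEK293T libraries at no more than 0.793. No gene symbol of the snaR family was in the table, so the snaR-A libraries could not be checked by their own transcript. Of the markers, 7 of 8 for A549 and 6 of 8 for HEK293T separated the lines, and INA and SALL4, listed for HEK293T, were higher in A549.

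Cells regulate cholesterol by feedback at the endoplasmic reticulum. When membrane sterol is low, the SREBP2 protein made from SREBF2 is carried by SCAP to the Golgi and cut there, and its released part enters the nucleus and switches on genes of sterol synthesis and uptake, SREBF2 and INSIG1 included. When sterol is plentiful, INSIG proteins hold SCAP and SREBP2 in the endoplasmic reticulum and the same genes fall together.

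A stretch within 250 bases before the transcription start of 6 of the genes is shown because promoters under SREBP2 are known to pair a sterol regulatory element with a CCAAT box, bound by NF-Y. Each is 140 bases of GRCh38.p14 from the RefSeq promoter table, which covers 250 bases before a start, and is read 5′ to 3′ on the gene's own strand. The stretches were placed after their letters had been seen, and hold every match in the window before the start used except a second HMGCS1 copy 100 bases before the start. They end 101 bases before the start for HMGCS1, 103 for INSIG1, 76 for IDI1, 71 for MVD, 43 for DHCR7 and 1 for SREBF2. They are at chr5:43313513-43313652 for HMGCS1, chr16:88663162-88663301 for MVD, chr10:1049195-1049334 for IDI1, chr11:71448436-71448575 for DHCR7, chr7:155297636-155297775 for INSIG1 and chr22:41832965-41833104 for SREBF2. Capitals mark CCAAT, or ATTGG where it lies on the opposite strand, and in SREBF2 also TCACNCCAC, a short form of the sterol regulatory element in which N is any base.
HMGCS1: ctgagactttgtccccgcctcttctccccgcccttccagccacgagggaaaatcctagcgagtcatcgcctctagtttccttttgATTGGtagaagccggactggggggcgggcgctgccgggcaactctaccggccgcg
MVD: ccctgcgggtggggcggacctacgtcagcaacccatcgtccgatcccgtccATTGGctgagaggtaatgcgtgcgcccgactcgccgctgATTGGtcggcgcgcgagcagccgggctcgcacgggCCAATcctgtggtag
IDI1: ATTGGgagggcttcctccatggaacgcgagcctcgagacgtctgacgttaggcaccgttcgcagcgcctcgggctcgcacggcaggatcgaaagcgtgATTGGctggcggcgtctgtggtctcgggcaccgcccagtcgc
DHCR7: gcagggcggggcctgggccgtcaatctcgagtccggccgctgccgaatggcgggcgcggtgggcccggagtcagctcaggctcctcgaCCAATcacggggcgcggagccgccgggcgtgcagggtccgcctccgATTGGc
INSIG1: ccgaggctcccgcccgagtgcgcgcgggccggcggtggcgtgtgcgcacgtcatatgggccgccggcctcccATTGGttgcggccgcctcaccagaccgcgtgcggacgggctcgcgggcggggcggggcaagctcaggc
SREBF2: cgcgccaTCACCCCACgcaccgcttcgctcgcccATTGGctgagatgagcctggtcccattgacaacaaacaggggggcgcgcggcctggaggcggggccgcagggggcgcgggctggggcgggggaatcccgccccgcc

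CCAAT on either strand was found before at least 1 start of all 6 genes, which have 10 windows in the table. At least 2 copies were found in 4 of the genes, with 3 in MVD and 3 before an IDI1 start not shown. HMGCS1, IDI1 and DHCR7 each also have a start with no match. Of 27305 genes with a promoter in the table, 37.0% held at least 1 copy and 11.5% at least 2, a gene being counted if any of its windows did. By window, 32.0% of 35116 held at least 1 copy. Of 21 other sterol genes with a promoter in the table, 12 held it. TCACNCCAC was found before SREBF2, where it begins 133 bases before the start, ahead of the CCAAT box at 106 bases, and not before the other 5 or any of the 21 others. It was found for 1.09% of the 27305 genes, and in 0.883% of 35116 promoter windows. A match describes letters in a window and is neither a bound site nor a cause. The promoters of SQLE and FDFT1 are not shown.

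**Figure D1:**
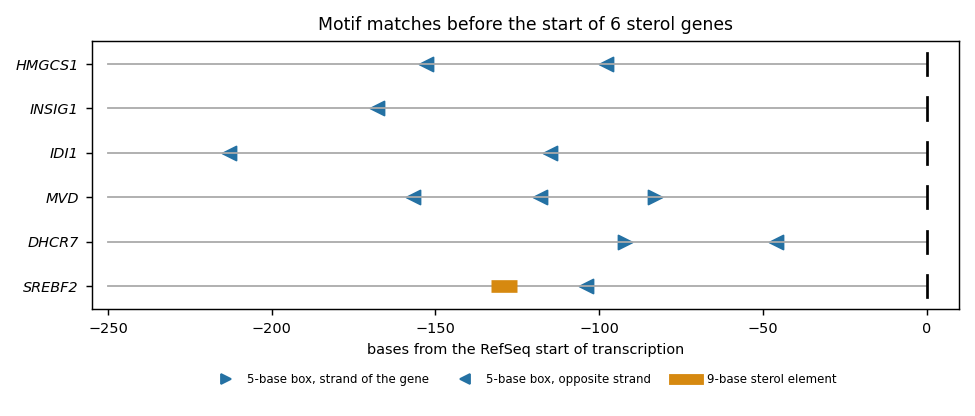
Positions of CCAAT and of the sterol element before 1 RefSeq start of each of 6 genes, in bases from the start on the x axis, 1 row per gene. Every row has at least 1 CCAAT mark, MVD has 3, and the sterol element appears in SREBF2 alone.

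On GRCh38 with GENCODE 44 gene models, SREBF2 (ENSG00000198911) lies at chr22:41833105-41907306 on the plus strand and hosts MIR33A, while SREBF2-AS1 overlaps it on the other strand. INSIG1 (ENSG00000186480) lies at chr7:155297776-155310235 on the plus strand. HMGCS1 (ENSG00000112972) lies at chr5:43287470-43313512, MVD (ENSG00000167508) at chr16:88651935-88663161, IDI1 (ENSG00000067064) at chr10:1039152-1049119 and DHCR7 (ENSG00000172893) at chr11:71428193-71452868, all on the minus strand. SQLE (ENSG00000104549) at chr8:124998497-125022283 and FDFT1 (ENSG00000079459) at chr8:11795573-11839395 are on the plus strand. The counts are sums over a gene's transcripts, so exon and intron reads are not separate in them. The share of sequence words of 31 bases found also in another gene was highest for MVD at 2.69% and IDI1 at 2.45% (pseudogene IDI1P1) and was 0 for SQLE, INSIG1 and SREBF2. IDI1 is further overlapped by the antisense gene IDI2-AS1.

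Levels are given as CPM on library sizes scaled by TMM over all 24 libraries. The 3 values of a group are those of replicates 1, 2 and 3. In HEK293T the scramble libraries stood above all 9 other libraries for 6 of the 8 genes, the exceptions being FDFT1 and DHCR7. In A549 the 4 plasmids differed little.

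SREBF2, the gene of the SREBP2 precursor, measured 186, 180.2 and 173 CPM in HEK293T scramble libraries, 158, 148 and 143 CPM with snaR-A, 131, 144 and 148 CPM with SF3B2 and 141, 132 and 131 CPM with eGFP. Scramble was highest with no overlap, and each of the other groups overlapped its neighbour in the order. In A549 it measured 91.1, 93.8 and 103 CPM with scramble, 101, 98.7 and 99.4 CPM with snaR-A, 106, 111 and 108 CPM with SF3B2 and 97.9, 96.6 and 94.9 CPM with eGFP, the SF3B2 libraries lying above all others.

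INSIG1, whose protein retains SCAP in the endoplasmic reticulum, gave the widest range of the 8 genes. HEK293T scramble libraries held 517, 514 and 454 CPM, snaR-A libraries 334, 287 and 291 CPM, SF3B2 libraries 228, 239.6 and 234 CPM and eGFP libraries 202, 165 and 194 CPM. These 4 groups followed each other with no overlap. In A549 all 12 libraries fell between 77.9 and 89.5 CPM, and each group overlapped the next.

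HMGCS1, which condenses acetoacetyl-CoA with acetyl-CoA into HMG-CoA, measured 258, 257 and 248 CPM in HEK293T scramble libraries, 188, 184 and 184 CPM with snaR-A, 194, 204 and 183 CPM with SF3B2 and 169, 148 and 177 CPM with eGFP. Scramble was highest and eGFP lowest, each with no overlap, while SF3B2 and snaR-A overlapped. In A549 it measured 239, 261 and 224 CPM with scramble, 255, 254 and 232 CPM with snaR-A, 243, 229 and 227 CPM with SF3B2 and 281, 275 and 242 CPM with eGFP, with overlap at every step of the order.

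MVD, which decarboxylates mevalonate diphosphate to isopentenyl diphosphate, measured 21.9, 22.9 and 21.4 CPM in HEK293T scramble libraries, 18.8, 19.1 and 18.7 CPM with snaR-A, 12.3, 15.6 and 17.5 CPM with SF3B2 and 16.5, 18 and 17.5 CPM with eGFP. The SF3B2 libraries varied most, with a coefficient of variation of 17.3%, the highest of the 64 gene and group pairs. In A549 the 12 libraries lay between 11.9 and 15.0 CPM.

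IDI1, which turns isopentenyl diphosphate into its reactive isomer, measured 337, 354 and 312 CPM in HEK293T scramble libraries, 220.3, 190.2 and 197 CPM with snaR-A, 187, 196 and 176 CPM with SF3B2 and 163, 139 and 167 CPM with eGFP. Scramble and eGFP stood at opposite ends with no overlap, and snaR-A overlapped SF3B2. In A549 the 12 libraries lay between 109 and 126 CPM.

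FDFT1, squalene synthase, where sterol synthesis leaves the shared isoprenoid path, was the lowest of the 8 genes in the table, at 6.25, 6.12 and 7.12 CPM in HEK293T scramble libraries, 6.32, 5.88 and 6.21 CPM with snaR-A, 6.01, 6.25 and 6.94 CPM with SF3B2 and 6.03, 5.26 and 5.64 CPM with eGFP. Neighbouring groups overlapped throughout. In A549 the range was 7.79 to 9.28 CPM. Reads assigned to IDs with no symbol, 2.53% of all counts, were not traced, so whether some belong to FDFT1 was not tested.

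SQLE, squalene epoxidase, which uses oxygen to open the way to the sterol ring, measured 488, 487 and 434 CPM in HEK293T scramble libraries, 311, 283 and 280.1 CPM with snaR-A, 324, 310.3 and 274 CPM with SF3B2 and 244, 257 and 257 CPM with eGFP. Scramble was highest and eGFP lowest with no overlap. In A549 the 12 libraries lay between 175 and 206 CPM.

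DHCR7, which makes cholesterol from 7-dehydrocholesterol in the last step, measured 90.4, 86.0 and 81.8 CPM in HEK293T scramble libraries, 81.1, 86.4 and 83.7 CPM with snaR-A, 63.1, 71.0 and 77.0 CPM with SF3B2 and 71.8, 70.1 and 73.7 CPM with eGFP. Here snaR-A overlapped scramble, and both lay above the SF3B2 and eGFP libraries. In A549 the SF3B2 libraries, at 99.7, 95.6 and 94.4 CPM, lay just above scramble at 87.5, 90.5 and 94.3 CPM, snaR-A at 91.9, 88.5 and 88.4 CPM and eGFP at 87.9, 84.3 and 86.1 CPM.

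**Figure D2:**
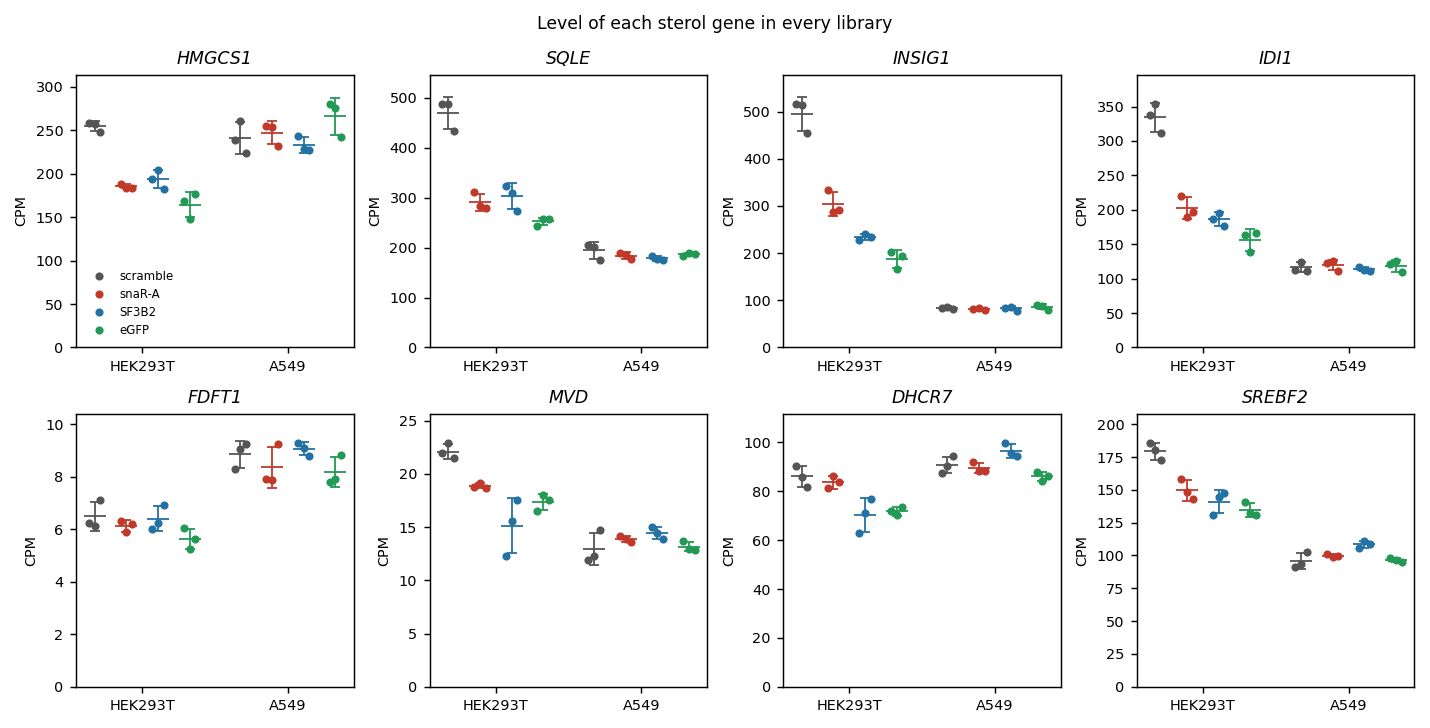
Level of each gene in every library, CPM on a linear y axis, with HEK293T and A549 side by side and 1 colour per plasmid. Points are libraries and bars the mean ± SD of 3. In HEK293T the scramble points of INSIG1 (454 to 517 CPM) and SQLE (434 to 488 CPM) stand clear of the other plasmids, while the A549 points of these genes form one band.

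Over the 64 gene and group pairs the coefficient of variation between replicates ran from 1.25% to 17.3%, with a median of 5.20%. Divided by the length of the canonical transcript, so that genes can be compared, mean levels in HEK293T scramble libraries were 170.2 CPM per kb for INSIG1, 159 for SQLE, 122 for IDI1, 47.6 for HMGCS1, 34.3 for SREBF2, 32.8 for DHCR7, 12.3 for MVD and 3.19 for FDFT1. In A549 eGFP libraries the order was SQLE at 63.0, HMGCS1 at 49.7, IDI1 at 43.2, DHCR7 at 32.8, INSIG1 at 29.6, SREBF2 at 18.4, MVD at 7.31 and FDFT1 at 4.02 CPM per kb. INSIG1 was thus first by level per length in HEK293T scramble, and behind SQLE, HMGCS1, IDI1 and DHCR7 in A549 eGFP. These groups differ in plasmid as well as in line. In HEK293T eGFP libraries SQLE was first at 85.2 CPM per kb and INSIG1 next at 64.4.

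In HEK293T, snaR-A libraries were set against scramble libraries to ask what snaR-A overexpression does to these mRNAs. Most of the 8 sterol genes were lower with snaR-A than with scramble. For HMGCS1, SQLE, INSIG1, IDI1, MVD and SREBF2, every SF3B2 and eGFP library of HEK293T was below scramble as well. Of the 8, 6 fell and 0 rose at an adjusted p under 0.05 (edgeR's quasi-likelihood F-test, p-values adjusted by Benjamini-Hochberg across 22667 genes), beside 18.5% of all genes called lower and 17.8% called higher. In 6 of 8 the groups did not overlap, as in 50.0% of all genes. The median log2 fold change of the 8 was -0.35, against -0.0072 for all genes tested, with overlap in FDFT1 and DHCR7.

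IDI1 fell from a mean of 334 ± 21.1 CPM to 203 ± 15.7 CPM (SD, n = 3 each), a log2 fold change of -0.71 (SE 0.07, adjusted p = 0.00041 by edgeR's quasi-likelihood F-test). INSIG1 fell from 495 ± 35.7 CPM to 304 ± 26.2 CPM, a change of -38.0% (log2 fold change -0.69, SE 0.08, adjusted p = 0.000565 by edgeR). SQLE fell from 469.8 ± 31.2 CPM to 291 ± 17.0 CPM, a change of -37.5% (log2 fold change -0.68, SE 0.06, adjusted p = 0.000389 by edgeR). The differences of these 3 genes are several times the SD within either group. Here and below, percent changes come from the fitted fold changes. Each fit scales its own libraries, so they differ slightly from the ratio of the CPM means.

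HMGCS1 fell from 254 ± 5.78 CPM to 186 ± 2.50 CPM, a change of -26.5% (adjusted p = 0.000322 by edgeR). SREBF2 fell by 16% and MVD by 14%, with adjusted p of 0.00586 and 0.0054. The call on MVD was lost when libraries were scaled by size alone (adjusted p = 0.0519) and when all 12 HEK293T libraries shared one fit (0.113). DHCR7 (log2 fold change -0.03, adjusted p = 0.662) and FDFT1 (-0.07, 0.553) did not pass. Their estimates turn to 0.07 and 0.03 when libraries are scaled by size alone, under which the median of all genes is 0.09 and 72.9% of calls are higher instead of 49.0%.

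The 8 HEK293T marker genes moved beside this difference, their sum being 718 to 781 CPM with scramble and 499 to 538 CPM with snaR-A, with 4 of 8 called lower, 1 called higher and none at 0 in any library. Their part in the result was not tested. The sum of the 8 sterol genes was 1730 to 1909 CPM with scramble and 1204 to 1318 CPM with snaR-A.

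Comparing eGFP with scramble in HEK293T asks how the controls of the 2 plasmid types differ. It shares the 3 scramble libraries with the snaR-A comparison. The sterol genes were lower with eGFP by a wider margin. Of the 8, 7 fell and 0 rose (adjusted p under 0.05, edgeR's quasi-likelihood F-test over 22613 genes), beside 25.8% of all genes called lower and 22.9% called higher. The groups did not overlap for any of the 8, as for 59.2% of all genes. The median log2 fold change of the 8 was -0.51, against -0.01 over all genes.

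INSIG1 was reduced most, from 495 ± 35.7 CPM to 187 ± 19.2 CPM (SD, n = 3 each), which is a log2 fold change of -1.39 (SE 0.09, adjusted p = 9.15e-05 by edgeR's quasi-likelihood F-test). IDI1 fell from 334 ± 21.1 CPM to 156 ± 15.3 CPM, a change of -52.9% (log2 fold change -1.09, SE 0.08, adjusted p = 0.00013 by edgeR). SQLE fell by 45.7%, to 252 ± 7.64 CPM, and HMGCS1 by 34.7%, to 165 ± 14.6 CPM, with adjusted p of 0.000116 and 0.000469. Of these 4 genes, INSIG1 thus had less than the others left relative to scramble, at 37.8% of the scramble mean.

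SREBF2 fell by 24.3% (log2 fold change -0.40, adjusted p = 0.000675 by edgeR), MVD by 20.6% (0.00233) and DHCR7 by 15.7% (0.00512). FDFT1, the gene with the fewest reads, stood at 6.5 ± 0.547 CPM and 5.64 ± 0.384 CPM (log2 fold change -0.19, adjusted p = 0.148). Of the A549 markers, 2 of 5 tested were called higher with eGFP. Without eGFP replicate 3, the library with A549 marker RNA, the 7 calls were also made, and INSIG1 stood at a log2 fold change of -1.41. Scaling by library size moved the share of higher calls from 47.0% to 61.6% and did not turn the direction of any of the 8. The HEK293T marker sum was 448 to 454 CPM with eGFP against 718 to 781 CPM with scramble (3 of 8 called lower, 1 higher, none at 0), and its part in the result was not tested.

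SF3B2 was compared with eGFP in HEK293T to ask what the splicing factor itself does. Of the 8 genes, 0 were called in either direction by edgeR's quasi-likelihood F-test, where 0.0398% of all 22623 genes were called higher and 0.133% lower. At an unadjusted p under 0.05, 4 of the 8 were higher with SF3B2, and these 4 were the ones whose groups did not overlap, as in 29.5% of all genes. The share of all genes at an unadjusted p under 0.05 was not counted, here or in the comparisons below, so such counts have no background. DESeq2 called 2 of them, SQLE and INSIG1, and edgeR's exactTest called 0.

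INSIG1 measured 234 ± 5.93 CPM with SF3B2 and 187 ± 19.2 CPM with eGFP (SD, n = 3 each), a log2 fold change of 0.31 (SE 0.08, adjusted p = 0.139 by edgeR). The values were 0.25 for SQLE (adjusted p = 0.159), 0.24 for IDI1 (0.19) and 0.22 for HMGCS1 (0.197), all by edgeR's quasi-likelihood F-test. Without SF3B2 replicate 3, SQLE passed at an adjusted p of 0.0407. The other 4 genes overlapped, with log2 fold changes of 0.17 for FDFT1, 0.05 for SREBF2, -0.04 for DHCR7 and -0.21 for MVD. Scaled by library size alone, SREBF2 stood at -0.10 and the median of all genes at -0.18, with 7.94% of all calls higher instead of 23.1%.

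In A549 the same snaR-A against scramble comparison called 0 of the 8 genes (edgeR's quasi-likelihood F-test over 21662 genes), with 0 at an unadjusted p under 0.05 and 0 by DESeq2 and by exactTest. Over all genes 0.00923% were called higher and 0.00923% lower, so little was called at all. The groups overlapped for each of the 8, and did not for 11.8% of all genes. Log2 fold changes ran from -0.09 for FDFT1 (SE 0.09) to 0.09 for MVD (SE 0.09), with adjusted p of at least 0.842. INSIG1, at -38.0% in HEK293T, was 84.1 ± 2.82 CPM with scramble and 81.8 ± 2.66 CPM with snaR-A in A549 (SD, n = 3 each). SQLE was 194 ± 17.0 CPM with scramble and 184 ± 6.79 CPM with snaR-A. Without scramble replicate 3, or without snaR-A replicate 3, the count was also 0. Under library size alone 66.7% of the calls over all genes were higher instead of 50%, on 3 and 4 calls.

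For eGFP against scramble in A549, 0 of the 8 genes were called (edgeR's quasi-likelihood F-test, 21578 genes), 0 passed at an unadjusted p under 0.05, and DESeq2 and exactTest called 0. Over all genes 1.46% were called higher and 0.0324% lower. The groups overlapped for each of the 8 and did not for 12.3% of all genes. HMGCS1 had the largest estimate, 266 ± 20.9 CPM with eGFP against 241 ± 18.6 CPM with scramble (SD, n = 3 each, log2 fold change 0.14, SE 0.08, adjusted p = 0.889 by edgeR). IDI1 was 118 ± 8.38 CPM with eGFP and 116 ± 7.26 CPM with scramble, and INSIG1 was 86.0 ± 5.44 CPM and 84.1 ± 2.82 CPM. Without scramble replicate 3 the count was also 0.

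SF3B2 against eGFP in A549 gave a small difference in 2 of the 8 genes. SREBF2 rose from 96.4 ± 1.5 CPM to 108 ± 2.95 CPM (SD, n = 3 each, log2 fold change 0.18, SE 0.04, adjusted p = 0.0319 by edgeR's quasi-likelihood F-test). DHCR7 rose from 86.1 ± 1.84 CPM to 96.6 ± 2.80 CPM (log2 fold change 0.17, SE 0.04, adjusted p = 0.0367 by edgeR). Over all 21581 genes 3.42% were called higher and 3.60% lower. For 3 of the 8, MVD being the other, the groups did not overlap, as for 29.6% of all genes.

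Both calls depended on single libraries. They were lost without eGFP replicate 1 (adjusted p by edgeR 0.0708 for DHCR7 and 0.0748 for SREBF2), eGFP replicate 2 (0.136 and 0.115), SF3B2 replicate 1 (0.147 and 0.0749), SF3B2 replicate 2 (0.117 and 0.15) or SF3B2 replicate 3 (0.115 and 0.126). Without eGFP replicate 3 both were kept and HMGCS1 was called lower (-0.25, adjusted p = 0.00671 by edgeR). HMGCS1 measured 266 ± 20.9 CPM with eGFP and 233 ± 8.85 CPM with SF3B2 over all 6 libraries (log2 fold change -0.18, adjusted p = 0.141). MVD stood at 0.14 and FDFT1 at 0.16, SQLE at -0.06 and both IDI1 and INSIG1 at -0.05. At an unadjusted p under 0.05, 4 of the 8 passed, with no share over all genes to set beside them, and DESeq2 called 3. Neither call was made with library size alone or with no low-count filter, and scaling by library size moved the share of higher calls over all genes from 48.7% to 36.2%.

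**Figure D3:**
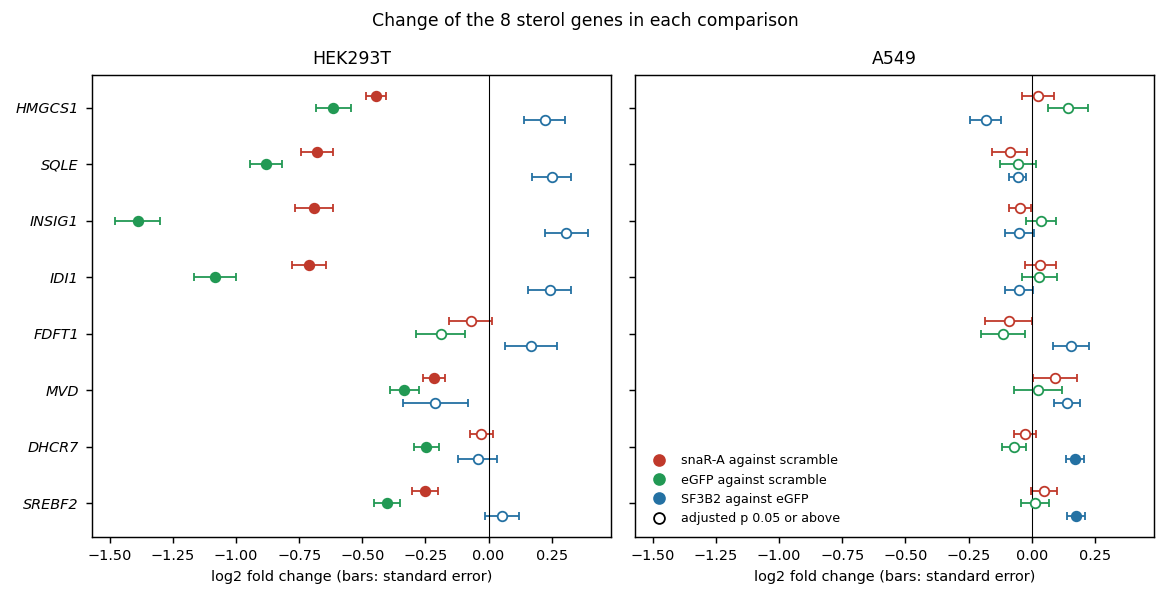
Log2 fold change of each gene on the x axis with its SE as a bar, for the 3 comparisons in HEK293T and the 3 in A549. Filled points passed an adjusted p under 0.05. In HEK293T the points of eGFP against scramble reach -1.39 for INSIG1, while the A549 points lie between -0.18 and 0.18.

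The difference of an effect between HEK293T and A549 was tested with an interaction term in a fit to 12 libraries. For snaR-A against scramble, 5 of the 8 genes had a more negative effect in HEK293T than in A549 (adjusted p under 0.05, edgeR's quasi-likelihood F-test over 24784 genes), beside 4.79% of all genes. They were IDI1 (difference of log2 fold changes -0.73, SE 0.10, adjusted p = 0.00178), INSIG1 (-0.63), SQLE (-0.58), HMGCS1 (-0.46) and SREBF2 (-0.29). MVD stood at -0.30 (adjusted p = 0.0724), FDFT1 at 0.03 and DHCR7 at 0.01. SREBF2 was lost without A549 scramble replicate 2 (adjusted p by edgeR 0.0531), A549 snaR-A replicate 1 (0.0527) or HEK293T snaR-A replicate 2 (0.0519). MVD passed without A549 scramble replicate 3 (0.00215) or HEK293T scramble replicate 3 (0.0418). Without A549 snaR-A replicate 3 the count was also 5. RLE scaling moved the share of higher calls over all genes from 58.1% to 45.0%, and library size alone moved it to 68.1%. With library size alone SREBF2 was lost as well, and 4 of the 8 were called.

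For eGFP against scramble, 7 of the 8 had a more negative effect in HEK293T (edgeR's quasi-likelihood F-test over 24763 genes), beside 15.6% of all genes. INSIG1 differed by -1.49 on the log2 scale (SE 0.12, adjusted p = 3.59e-05), IDI1 by -1.18, SQLE by -0.89, HMGCS1 by -0.82, SREBF2 by -0.48, MVD by -0.42 and DHCR7 by -0.24. FDFT1 was at -0.14 (adjusted p = 0.458). MVD was lost without A549 scramble replicate 1, A549 scramble replicate 2 or HEK293T eGFP replicate 1, at adjusted p of 0.0516 to 0.0779. DHCR7 was lost without A549 eGFP replicates 1 or 3, A549 scramble replicates 1 or 2, HEK293T eGFP replicates 1 or 2, or HEK293T scramble replicates 1 or 2, at 0.0579 to 0.101. With A549 scramble replicate 3 and HEK293T eGFP replicate 3 both left out, 7 genes were called. Under library size alone MVD and DHCR7 were lost, 5 of the 8 were called, and 62.0% of all calls were higher instead of 40.9%.

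For SF3B2 against eGFP, HMGCS1 (difference 0.43, SE 0.11, adjusted p = 0.0472) and SQLE (0.33, SE 0.08, adjusted p = 0.0467) had a more positive effect in HEK293T (edgeR's quasi-likelihood F-test over 24714 genes), beside 3.52% of all genes. INSIG1 was at 0.38 (adjusted p = 0.0607) and IDI1 at 0.32 (0.0979). SREBF2 was at -0.10, DHCR7 at -0.19, MVD at -0.33 and FDFT1 at 0.04. Neither call was made without A549 eGFP replicates 1 or 2, any 1 A549 SF3B2 replicate, HEK293T eGFP replicates 1 or 2, or HEK293T SF3B2 replicates 1 or 2 (adjusted p by edgeR from 0.0786 to 0.116). Without A549 eGFP replicate 3 or HEK293T eGFP replicate 3, HMGCS1 alone passed (0.0334 and 0.0349, with SQLE at 0.0749 and 0.0528), and without HEK293T SF3B2 replicate 3 there were 4 calls, HMGCS1 and SQLE more positive in HEK293T and MVD (-0.44, adjusted p = 0.0401) and DHCR7 (-0.25, 0.0378) more negative. Scaled by library size alone, 0 of the 8 were called, the median of all genes was -0.19 and 24% of all calls were higher instead of 57.7%.

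HEK293T was compared with A549 over all 24 libraries with the plasmid as a term. All 8 genes differed between the lines (edgeR's quasi-likelihood F-test over 25923 genes), 5 higher and 3 lower in HEK293T, in a comparison that called 42.1% of all genes higher and 41.7% lower. INSIG1 was higher in HEK293T by 1.76 on the log2 scale (SE 0.12, adjusted p = 4.08e-12 by edgeR), IDI1 by 0.84, SQLE by 0.77, SREBF2 by 0.58 and MVD by 0.41. FDFT1 stood at -0.49, HMGCS1 at -0.33 and DHCR7 at -0.23, that is, lower in HEK293T. These 3 depend on the scaling. By library size alone the median of all genes moved from 0.0081 to 0.47, HMGCS1 was at 0.13, DHCR7 at 0.23 and FDFT1 at -0.03 (adjusted p = 0.662), and 66.8% of all calls were higher instead of 50.2%. HMGCS1 depends on the plasmid too. Its mean was 254 CPM in HEK293T and 241 CPM in A549 with scramble, and 165 and 266 CPM with eGFP. With snaR-A and with SF3B2 its mean was also lower in HEK293T. With A549 scramble replicate 3 and HEK293T eGFP replicate 3 left out, all 8 were called.

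The levels of the 8 genes correlated with each other more in HEK293T than in A549. Over the 12 HEK293T libraries the 28 gene pairs had Pearson correlations of log2 CPM from 0.22 to 0.98 with a median of 0.74, 8 of them over 0.9, and none negative. Over the 12 A549 libraries they ran from -0.79 to 0.84 with a median of -0.21, and 16 were negative. IDI1 and INSIG1 had the highest value in HEK293T, 0.98. These values describe libraries that fall into 4 plasmid groups.

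The genes most like the 8 were ranked by the Pearson correlation with the mean of the 8 genes' scaled log2 CPM over the 12 libraries of a line. In HEK293T they were LRATD2 (r = 0.994 among 12405 genes), WASF3 (0.992), CA2 (0.992), RBL2 (0.99) and SUN1 (0.99). LRATD2 measured 299, 318 and 307 CPM with scramble, 229, 211 and 213 CPM with snaR-A, 174, 206 and 216 CPM with SF3B2 and 178, 166 and 177 CPM with eGFP. CA2, a carbonic anhydrase, measured 141, 149 and 136 CPM with scramble, 104, 88.5 and 97.3 CPM with snaR-A, 71.8, 84.3 and 86.6 CPM with SF3B2 and 69.8, 65.0 and 71.1 CPM with eGFP. In A549 the closest were ARF1 (r = 0.868 among 12155 genes), ACSS2 (0.865), SRD5A1 (0.845), MAPRE1 (0.842) and CERS2 (0.841).

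The rest of the pathway was read from lists that leave the 8 genes out. In HEK293T their counts stand beside 17.8% of all genes called higher and 18.5% lower with snaR-A, and 22.9% higher and 25.8% lower with eGFP. In the mevalonate arm, 6 genes between acetyl-CoA and the C15 and C20 prenyl diphosphates, HEK293T snaR-A libraries had 2 genes called higher and 3 lower than scramble (median log2 fold change -0.0084, against -0.0072 for all genes tested). MVK, mevalonate kinase, rose by 0.46 and ACAT2 by 0.15, and FDPS, farnesyl diphosphate synthase, was at -0.22 (adjusted p = 0.00515 by edgeR's quasi-likelihood F-test). With eGFP the same list again had 2 higher and 3 lower, led by FDPS at -0.35 and GGPS1 at -0.34, and by MVK at 0.36 and ACAT2 at 0.23. MVK read 8.62 to 9.60 CPM with scramble and 12 to 13.0 CPM with snaR-A. Under library size alone the median of this list with snaR-A was 0.09.

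Among 10 genes of the sterol ring and later steps, HEK293T snaR-A libraries had 4 higher and 2 lower (median 0.04). MSMO1, the C4-methyl sterol oxidase, fell by 0.72 on the log2 scale (SE 0.08, adjusted p = 0.000569 by edgeR), close in size to IDI1. Its libraries read 130.4 to 156 CPM with scramble, 83.8 to 96.5 CPM with snaR-A, 80.1 to 88.6 CPM with SF3B2 and 64.5 to 74.7 CPM with eGFP. SC5D, lathosterol oxidase, fell by 0.23, while TM7SF2, a sterol reductase, rose by 0.32 and HSD17B7 by 0.26. With eGFP, 4 of the 10 fell and 0 rose, MSMO1 by 1.06 and SC5D by 0.40, though the median was -5.2e-05. Under library size alone the latter count became 4 higher and 2 lower.

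Of the 10 genes of SREBP control and sterol transport, 9 were tested in HEK293T. With snaR-A, 5 fell and 0 rose (median -0.18), beside 18.5% of all genes called lower, and with eGFP, 7 fell and 0 rose (median -0.36), beside 25.8%. Under library size alone 3 fell with snaR-A (median -0.080) and 5 with eGFP (-0.25). STARD4, a carrier of cholesterol between membranes, fell by 0.38 with snaR-A (adjusted p = 0.00157 by edgeR) and by 0.68 with eGFP (0.00211). It read 66.0 to 75.2 CPM with scramble, 51.6 to 55.8 CPM with snaR-A, 44.8 to 51.2 CPM with SF3B2 and 35.4 to 47.9 CPM with eGFP. INSIG2, the paralog of INSIG1, fell by 0.59 with eGFP (adjusted p = 0.000493) and read 32.5 to 34.0 CPM with scramble and 19.4 to 23.0 CPM with eGFP. SF3B2 against eGFP called none of these 3 lists' genes in HEK293T, and at an unadjusted p under 0.05 the counts were 0 of 6, 2 of 10 and 0 of 9.

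In A549 snaR-A against scramble called 0 genes of the 3 lists (1 of 6, 0 of 10 and 0 of 10 at an unadjusted p under 0.05). STARD4 was the gene called in the eGFP comparison, at 87.8 to 110.3 CPM with eGFP against 67.0 to 68.8 CPM with scramble (log2 fold change 0.60, SE 0.09, adjusted p = 0.0185 by edgeR). It was lower again with SF3B2, at 64.5 to 69.0 CPM (-0.60 against eGFP, adjusted p = 0.0106). Beside SREBF2 and DHCR7, SF3B2 libraries had higher levels than eGFP of SREBF1 (log2 fold change 0.23, adjusted p = 0.0167 by edgeR), MVK (0.40, 0.0393) and SCAP (0.20, 0.043). Under library size alone MVK (0.0776) and SCAP (0.0594) did not pass. The interaction tests put MSMO1 at -0.71 for snaR-A (adjusted p = 0.00232) and -1.16 for eGFP (0.000124), and STARD4 at -0.41 (0.00817) and -1.34 (0.000373), each more negative in HEK293T.

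Of 7 genes of LXR signalling, efflux and sterol esters, 6 were tested in HEK293T, where snaR-A libraries had 2 higher and 1 lower than scramble (median 0.21). NR1H3, the oxysterol receptor LXRα, rose by 0.49 (adjusted p = 0.00526 by edgeR) and NR1H2, LXRβ, fell by 0.48 (0.00148). With eGFP, 2 rose and 1 fell, with ABCA1, the exporter of cholesterol to apolipoprotein, at 8.65 to 10.9 CPM against 6.44 to 7.41 CPM with scramble (0.51, adjusted p = 0.00591). Of 9 genes of fatty acid synthesis under SREBP1, 2 fell with snaR-A and 3 with eGFP, and 0 rose, beside 18.5% and 25.8% of all genes called lower. SCD, the stearoyl-CoA desaturase, fell by 0.28 and by 0.42, from 1243 to 1343 CPM with scramble to 1040 to 1120 CPM with snaR-A and 921 to 1031 CPM with eGFP. Scaled by library size alone, 1 gene of this list was called higher in each comparison, its median with snaR-A turned from -0.04 to 0.06, and that of the LXR list with eGFP from -0.03 to 0.08.

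**Figure D4:**
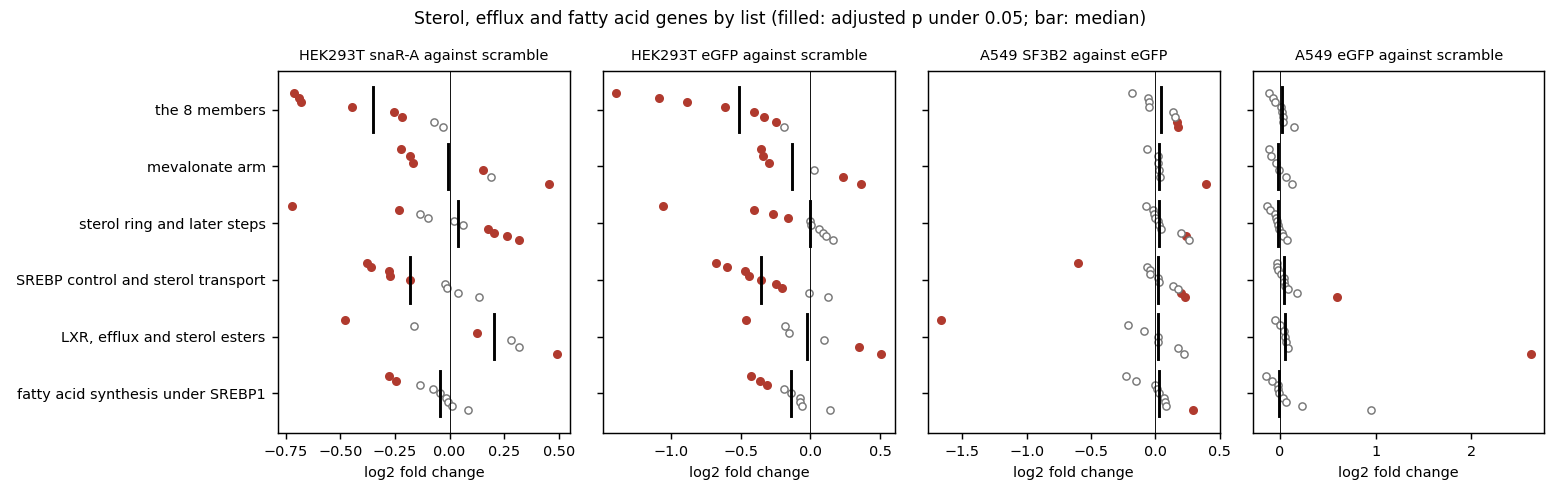
Log2 fold changes of the genes of each pathway list, 1 dot per gene, in 4 comparisons. Red dots passed an adjusted p under 0.05 and bars are list medians. In the HEK293T panels the bar of the 8 genes stands at -0.35 and -0.51, and the bars of the other sterol lists lie nearer to 0. The 8 genes and the lists were chosen with earlier results of these data known, so this difference is a description.

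Stress and interferon genes were read as well. In HEK293T the summed level of 9 genes of the ATF4 and endoplasmic reticulum stress response was 1587 to 1803 CPM with scramble, 1352 to 1495 CPM with snaR-A and 1324 to 1355 CPM with eGFP. Of these genes 5 fell and 3 rose with snaR-A, beside 18.5% of all genes called lower and 17.8% higher. DNAJB9, a chaperone partner, fell by 0.36 while CHAC1, a target of ATF4, rose by 0.66. With eGFP 5 fell and 2 rose, beside 25.8% of all genes called lower and 22.9% higher. HSPA5, the chaperone BiP, fell by 0.45 and CHAC1 rose by 0.84. The summed level of this list fell, as did that of the 8 sterol genes, but its called genes went in both directions. None of the 8 was called higher in either comparison. Other sterol genes were, with 2 of the mevalonate arm called higher in each comparison and 4 of the sterol ring list with snaR-A. The part of the stress list in the result was not tested.

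The interferon list of 10 genes was 93.8 to 106 CPM in sum in HEK293T scramble libraries, 95.7 to 98.6 CPM with snaR-A and 86.0 to 136 CPM with eGFP, with 2 of 9 tested called with snaR-A (1 higher, 1 lower) and 3 of 10 with eGFP (2 higher, 1 lower). Of all genes, 17.8% were called higher and 18.5% lower with snaR-A, and 22.9% higher and 25.8% lower with eGFP. In A549 all 10 rose with eGFP against scramble, from sums of 950 to 1059 CPM to 4500 to 5707 CPM, and all 10 were lower with SF3B2 than with eGFP (1413 to 1712 CPM). Of all genes, 1.46% were called higher in the former comparison and 3.60% lower in the latter. OAS2 rose with eGFP against scramble by 4.0 on the log2 scale (adjusted p = 6.35e-05 by edgeR). In these same A549 libraries none of the 8 sterol genes was called between eGFP and scramble. In A549 snaR-A libraries the sum was 1084 to 1583 CPM, with 0 of 10 called and 6 of 10 at an unadjusted p under 0.05. The share of all genes at that unadjusted p was not counted.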

How the data were processed

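Per the submitters' processing notes and the study's methods, the authors trimmed reads with Trim Galore and quantified transcripts with Salmon on hg38, and deposited estimated counts per gene for all 24 libraries (rRNA-depleted, stranded, 3 biological replicates per group). The study's methods, in a passage that names its siRNA-treated cells, give poly(A)+ RNA enrichment after rRNA depletion. Of the deposited estimated counts 51.0% were not whole, and they were rounded. The 5333 IDs with no symbol held 2.53% of counts. Genes were filtered with filterByExpr, scaled by TMM and tested with edgeR 4.0.16 (quasi-likelihood F-test, Benjamini-Hochberg adjustment over all genes tested, threshold 0.05) in R 4.3.3, with the 2 groups compared alone, an interaction term for effects between lines, or plasmid as a covariate between lines. Fold changes are edgeR's log2 values at its default prior count, and log2 CPM values use a prior count of 2. The SE of a log2 fold change was derived as its absolute value divided by the square root of the F statistic. Alternatives were DESeq2 1.42.0, exactTest, other scalings and filters, a replicate block, a fit over the 12 libraries of a line, and leaving out each library. Leaving out both libraries that stand apart was added after the data had been seen. Scripts were tested on simulated data.

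The 8 genes and all lists were chosen with earlier results of these data known. All 8 genes are named in each comparison. From each list the called genes with the largest absolute log2 fold change are named, at most 2 in each direction, if their mean log2 CPM is 1 or more, and some further list genes that this rule named are not reported here. The same floor of 1 applies to the genes most like the 8. No pair of libraries within a group agreed within counting noise.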

Additional observations from a re-analysis of the deposited data

Results flagged for a closer look

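In HEK293T and A549 the same contrast gave effects that differed by an interaction term (edgeR's quasi-likelihood F-test, adjusted p under 0.05) for 14 gene and contrast pairs. Each value is the HEK293T log2 fold change minus that in A549, over 12 libraries, 3 per group. For snaR-A against scramble they were IDI1 at -0.73 (adjusted p = 0.00178), INSIG1 at -0.63 (0.00231), SQLE at -0.58 (0.00437), HMGCS1 at -0.46 (0.0042) and SREBF2 at -0.29 (0.0263). For eGFP against scramble they were INSIG1 at -1.49 (3.59e-05), IDI1 at -1.18 (0.000139), SQLE at -0.89 (0.000234), HMGCS1 at -0.82 (0.000909), SREBF2 at -0.48 (0.00135), MVD at -0.42 (0.0201) and DHCR7 at -0.24 (0.031). For SF3B2 against eGFP they were HMGCS1 at 0.43 (0.0472) and SQLE at 0.33 (0.0467). Line and medium cannot be told apart in these differences, and the first 2 contrasts share the scramble libraries.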

How the results depend on the processing

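Counts of called sterol genes among the 8 held at 7 for HEK293T eGFP against scramble under each alternative run, and at 5 or 6 for HEK293T snaR-A. For A549 snaR-A and eGFP against scramble they were 0 throughout, and IDI1, INSIG1, SQLE and HMGCS1 were called lower in HEK293T with snaR-A and with eGFP under each alternative run. For HEK293T SF3B2 against eGFP the count of 0 became 2 with DESeq2, 3 in a fit over 12 libraries and 0 to 1 when single libraries were left out. For A549 SF3B2 against eGFP the count of 2 became 0 with library size alone, with no low-count filter or with a replicate block, 1 in the fit over 12 libraries and 0 to 3 when single libraries were left out. For the SF3B2 interaction the count of 2 became 4 with DESeq2, 1 with RLE, 0 with library size alone, with no filter or with a replicate block, and 0 to 4 when single libraries were left out. The snaR-A interaction gave 4 to 6 and the eGFP interaction 5 to 7 when single libraries were left out. With library size alone the snaR-A interaction gave 4, without SREBF2, and the eGFP interaction 5, without MVD and DHCR7. The cause was not tested.

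Signs turned mainly for values near 0. Library size alone turned FDFT1 to 0.027 and DHCR7 to 0.071 for HEK293T snaR-A, SREBF2 to -0.10 for HEK293T SF3B2, INSIG1 to 0.022 and DHCR7 to 0.040 for A549 snaR-A, FDFT1 to -0.13 for the SF3B2 interaction, and HMGCS1 to 0.13 and DHCR7 to 0.23 between the lines, where both had been called. For the snaR-A interaction, FDFT1 was -0.0094 with DESeq2, -0.012 with RLE and -0.0043 with no filter, and DHCR7 was -0.033 with DESeq2, -0.035 with RLE and -0.027 with no filter. Leaving out single libraries, HEK293T snaR-A ran from -0.062 to 0.0034 for DHCR7 and -0.12 to 0.0020 for FDFT1, and HEK293T SF3B2 from -0.090 to 0.032 for DHCR7. A549 snaR-A ran from -0.024 to 0.079 for HMGCS1 and -0.045 to 0.0015 for DHCR7. A549 eGFP ran from -0.022 to 0.13 for MVD, -0.0099 to 0.089 for IDI1, -0.12 to 0.0020 for SQLE and -0.011 to 0.066 for SREBF2. The snaR-A interaction ran from -0.060 to 0.089 for FDFT1 and -0.085 to 0.0068 for DHCR7, and the SF3B2 interaction from -0.020 to 0.091 for FDFT1.

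Over all genes the counts called moved further, from 39 to between 1 and 2075 for HEK293T SF3B2 against eGFP, from 1516 to between 654 and 2697 for A549 SF3B2 against eGFP, from 4 to between 0 and 36 for A549 snaR-A, from 322 to between 168 and 517 for A549 eGFP, from 1507 to between 402 and 3846 for the SF3B2 interaction and from 2831 to between 2228 and 4329 for the snaR-A interaction. Leaving out single libraries moved these counts by over 1.5 times too, to 1 (without eGFP replicate 1) and 1883 (without SF3B2 replicate 3) for HEK293T SF3B2, 379 (without SF3B2 replicate 2) and 3273 (without eGFP replicate 3) for A549 SF3B2, 1 (without scramble replicate 2) and 53 (without scramble replicate 3) for A549 snaR-A, and as low as 205 for A549 eGFP (without scramble replicate 2). They came to 423 (without HEK293T SF3B2 replicate 2) and 4527 (without HEK293T SF3B2 replicate 3) for the SF3B2 interaction, and 1262 (without HEK293T snaR-A replicate 2) and 4268 (without A549 scramble replicate 3) for the snaR-A interaction. For HEK293T snaR-A the count of 8229 became 5131 without snaR-A replicate 2. Deviations of same-numbered libraries had a median correlation of 0.025 in HEK293T (-0.13 to 0.22) and -0.026 in A549 (-0.37 to 0.38). These values do not settle whether replicate numbers pair some libraries, and the main fits used no pairing. With the number as a replicate block, calls among the 8 were 6 for HEK293T snaR-A, 7 for HEK293T eGFP, 0 for the other comparisons within a line, 5 for the snaR-A interaction, 5 for the eGFP interaction and 8 between the lines. Depth did not limit the 8 genes, whose lowest level, 5.26 CPM for FDFT1, is far above the limit of 3 counts. With library size alone 63 of 64 group means moved by more than 1 SD.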
